A study of Macaca mulatta with 48 samples.

Results

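Testicular cells that carried transcripts of the steroid pathway were taken from single-cell RNA libraries of rhesus monkey testis. The cells were chosen by their counts of 4 genes. STAR moves cholesterol into the mitochondrion, CYP11A1 makes the first steroid from it, CYP17A1 makes androgen precursors, and INSL3 encodes a peptide hormone of Leydig cells. A cell counted as a member when at least 2 of these genes had a unique molecular identifier (UMI, a tag for 1 captured RNA molecule), and when the sperm-chromatin genes PRM1, PRM2 and TNP1 held under 5% of its UMIs. The cells had to show at least 300 genes, no more than 30000 UMIs and a mitochondrial share of at most 3%. Of 112150 such cells, 1888 (1.68%) were members. The levels of the 4 genes are therefore given as a description and were not tested in these cells.

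Leydig cells lie between the seminiferous tubules and make testosterone under luteinizing hormone, which they sense through the receptor LHCGR. Cholesterol is carried inward by STAR and converted stepwise by CYP11A1, HSD3B, CYP17A1 and HSD17B3. Before puberty the interstitium holds immature Leydig cells, while Sertoli cells inside the cords secrete anti-Müllerian hormone (AMH) and transcribe SOX9.

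Testes of 6 male rhesus monkeys were profiled as droplet libraries, 1 testis of each animal in the non-breeding season (NB, August) and the other in the breeding season (B, December). Prepubertal animals were 1 year old, adult animals 6 years and aged animals 22 years, with 2 animals per age. The 6 age and season groups thus held 2 libraries each, and the breeding-season testis was collected after removal of the other one. Depth was 23072680 to 43405583 UMIs per library, except for adult animal 2 in the breeding season with 959819. In that library 117 of 333 barcodes passed the filter, and 46 of them (39.3%) occurred also in the breeding library of aged animal 1, against a median of 0.310% over pairs of libraries. No barcode of a member was shared between those libraries. It held 0 members among 117 cells, so shares up to 2.56% are possible there.

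The rule did not select one kind of cell. Of the members, 1796 carried exactly 2 of the 4 genes, 66 carried 3 and 26 carried all 4, and 920 carried 2 genes with 1 UMI each. Among cells under the sperm-chromatin limit, 19617 just outside the rule had 1 of the genes and 66884 had none, and 14 cells with 2 or more genes were left out for their sperm-chromatin share. Members held a median of 6912 UMIs, against 2567 in the other cells, so a deeper cell met the rule more easily. Doublets, droplets with 2 cells, were predicted for 245 members (13.0%), against 8.39% of all cells. When each cell was thinned to 1000 UMIs, 225 cells met the rule.

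Members were clustered without the 4 choosing genes. Of 12 clusters, 10 were Sertoli-like by their markers and held 1650 members (87.4%), led by SOX9 in 8 of them, by the Sertoli gene FATE1 in 1 and by the division gene TOP2A in the other one. The remaining 2 clusters were Leydig-like and held 238 members (12.6%), and 0.212% of all cells. The name Leydig-like was given from the choosing genes, all 4 of which were raised in both clusters, with LHCGR required among the leading genes. A marker was called raised against stromal cells, non-members that carried at least 2 of DCN, LUM, PDGFRA and COL1A1. Those cells carried under 2 of SOX9, AMH, FATE1 and CITED1 and under 2 choosing genes. Sertoli markers and choosing genes were thus raised in part by that choice. Most members were not named Leydig-like, and the whole set is called here cells with 2 steroid pathway genes. In 8 of the Sertoli-like clusters most cells came from 1 library. Doublets were predicted for 115 of the 188 cells of a further Sertoli-like cluster and for 34 of the 91 cells of another. The latter carried AMH in 62.6% of its cells. Both clusters were kept among the Sertoli-like members. At a lower and at a higher clustering resolution the same 238 cells stayed together in 2 and in 3 clusters, with 12 and 3 other cells. Thinning to 1000 UMIs kept 46.6% of the Leydig-like members under the rule and 6.93% of the Sertoli-like members. These shares count the genes that named the Leydig-like clusters. Leydig-like members were also shallower, at a median of 3366 against 7460 UMIs, so thinning took less from them. The contrast is therefore no check of the names.

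The combinations of choosing genes are given by kind as a description, since the kinds were named with the same genes. STAR with CYP11A1 alone was the most common combination with 1515 members, of which 19 (1.25%) were Leydig-like. Of its 1357 prepubertal members 99.6% carried AMH, at 5295 CPM (UMIs of a gene scaled to a common total) and a median depth of 7671 UMIs. Prepubertal cells with none of the 4 genes, leaving out spermatids, carried AMH in 87.7%, at 5125 CPM and a median of 2323 UMIs, so AMH was not particular to these members. STAR with CYP17A1 occurred in 241 members, of which 133 (55.2%) were Leydig-like. All 4 genes occurred in 26 members, of which 25 (96.2%) lay in the Leydig-like clusters. INSL3 was detected in 65 of 238 Leydig-like members and in 5 of 1650 Sertoli-like members. CYP17A1 was detected in 214 Leydig-like and 153 Sertoli-like members, and its pair with CYP11A1 was Leydig-like in 6 of 25 members. In the rhesus build Mmul_10, CYP17A1 lies on chromosome 9 from 103372364 to 103379292 and INSL3 on chromosome 19 from 17335433 to 17340843, both on the minus strand.

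LHCGR (chromosome 13, 60003337 to 60066496, plus strand), the luteinizing hormone receptor, was not used by the rule. In prepubertal non-breeding libraries it was detected in 42.5% (95% exact binomial interval 31.5 to 54.1) of the members with CYP17A1 or INSL3 in animal 1 and in 29.8% (17.3 to 44.9) in animal 2. In prepubertal breeding libraries the shares were 33.8% (22.8 to 46.3) in animal 1 and 55.9% (43.3 to 67.9) in animal 2. Members with STAR and CYP11A1 alone carried LHCGR in 1.46% of cells in the non-breeding and 0 of 401 in the breeding library of animal 1. In animal 2 it was found in 0 of 247 and in 0.795%. In all 4 prepubertal libraries the intervals of the 2 kinds of members did not overlap, although the members with STAR and CYP11A1 alone were deeper, at library medians of 6927 to 8490 UMIs against 2800 to 5219. Prepubertal cells with none of the 4 genes, spermatids included, carried LHCGR in 0.108% to 0.917% of cells by library.

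In older testes LHCGR was also found outside the members. With spermatids left out, cells with none of the 4 genes carried it in 18.6% of adult and 29.4% of aged cells, and PRM1 was found in 92.4% and 99.7% of those same cells. The values by library that follow include spermatids among the cells with none of the genes. In the non-breeding library of aged animal 1, 28 of 40 members with CYP17A1 or INSL3 carried LHCGR (70.0%, 53.5 to 83.4), against 15.7% of cells with none of the 4 genes and 15.3% of spermatids in that library. In the non-breeding season the same members carried it in 29.7% (15.9 to 47.0) in adult animal 1, against 4.60% of cells with none and 16.3% of spermatids, the latter inside the interval. In adult animal 2 they were 9 of 18 (26.0 to 74.0%), against 24.5% of cells with none and 28.9% of spermatids, the latter again inside the interval. In the breeding season of adult animal 1 they were 6 of 7 (85.7%, 42.1 to 99.6), against 28.3% of cells with none and 24.0% of spermatids. Median depths of these members were 3050 to 6469 UMIs by library, against 2145.5 to 3573 UMIs in spermatids and 1777 to 3268 UMIs over all cells of these libraries.

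**Figure D1:**
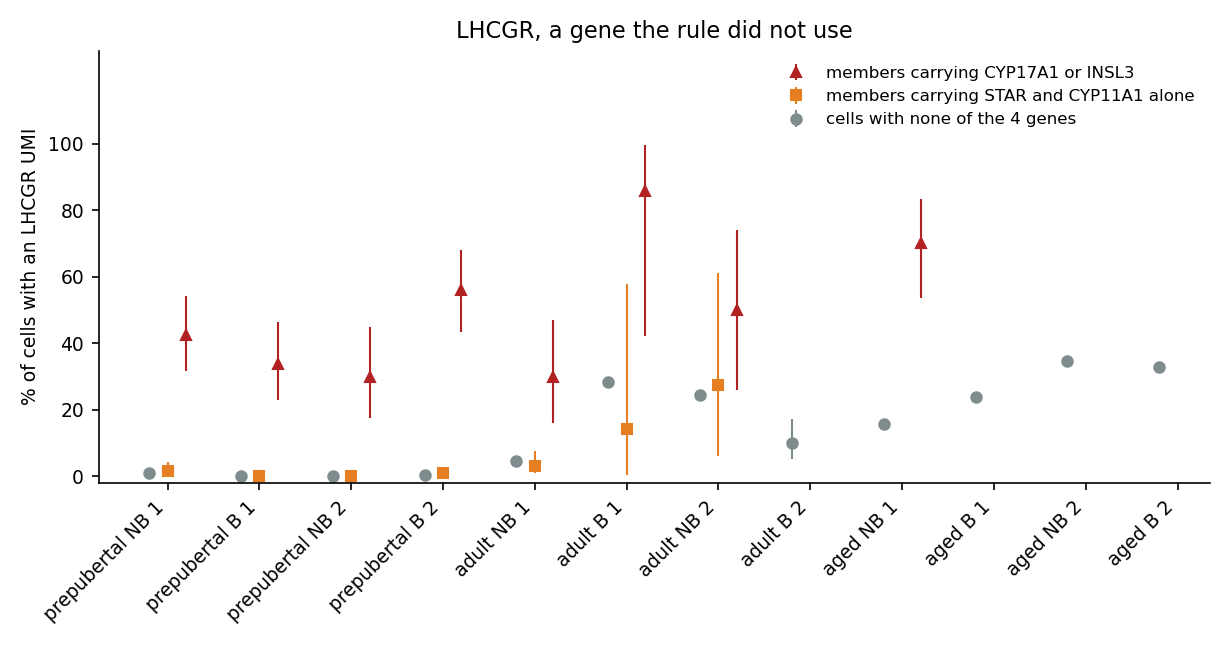
Share of cells with an LHCGR UMI (y axis, percent) in each library (x axis; NB non-breeding, B breeding, the number is the animal within its age group), with 95% exact binomial intervals. Triangles are members carrying CYP17A1 or INSL3, squares are members carrying STAR and CYP11A1 alone, circles are cells with none of the 4 genes, spermatids included, and sets of under 5 members are not drawn. Prepubertal triangles lie between 29.8% and 55.9% and prepubertal squares at 1.46% or below, while circles reach 34.7% in aged libraries.

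The share of members was highest in the prepubertal libraries. In prepubertal libraries they made up 2.73% and 2.59% of cells in the non-breeding season and 6.50% and 5.77% in the breeding season, and 1620 of the 1888 members (85.8%) were prepubertal. In adult animals the shares were 1.84% and 0.282% in the non-breeding season and 0.149% in the breeding library of animal 1. In aged animals the non-breeding libraries held 0.334% and 0.0457%, and the breeding libraries 0.0540% and 0.0185%. For a level in another kind of cell, the same count was made in cells with 5% or more of their UMIs in PRM1, PRM2 and TNP1, which are spermatids. Whether transcripts of the 4 genes in spermatids were free RNA or the cells' own was not tested. Median depths by library were 1864.5 to 3573 UMIs in these cells of the adult and aged libraries with members, and 2070.5 to 6611.5 UMIs in the members. The share was 0.389% (95% exact binomial interval 0.00985 to 2.15) for adult animal 1 in the non-breeding season, with 1 such cell among 257, so the 1.84% of its members lay inside that interval. For adult animal 2 it was 0.219% (0.0597 to 0.559), an interval that included its members' 0.282%. In the adult breeding library of animal 1 it was 0 of 4802 cells, with an upper limit of 0.0625%. In the aged non-breeding libraries it was 0.0342% (0.000866 to 0.190) and 0.0553%, and in the breeding library of aged animal 2 it was 0.0823%. The prepubertal libraries held 31, 0, 0 and 0 spermatids, too few for such a level, so their shares are set beside none. The library with 31, of animal 1 in the non-breeding season, held PRM1 at 528 CPM, against 0.0953 to 0.208 CPM in the others. FATE1 in its members was at 512 CPM, against 28.3 to 77.9 CPM. The FATE1-led cluster held 29 of its members, beside 109 of adult animal 1 in the same season. It is 1 side of that prepubertal animal's season comparison, and the source of this RNA was not tested. Members of aged animal 1 in the non-breeding season lay above the level in spermatids. Aged animal 2 lay at or below it in both of its libraries, so its share of members is not told apart from that level. The 2 members of its breeding library each carried CYP17A1, INSL3 and LHCGR and met the rule after thinning, whereas none of the 6 members of its non-breeding library did so after thinning. The 4 members of the breeding library of aged animal 1 lay under the limit of 0.127% that 0 of 2355 spermatids allows.

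Per animal, the log2 share was lower in 4 of 4 adult and aged animals than in both prepubertal animals, by a mean of 4.25. Sertoli-like members were 3.78% of prepubertal, 0.596% of adult and 0.0158% of aged cells, and Leydig-like members 0.385%, 0.138% and 0.109%. The lower share was thus mostly one of Sertoli-like members. The exact permutation test over animals gave a two-sided p of 0.0667, the smallest it can give with 4 against 2 animals (0.133 adjusted over 2 tests of shares). With at least 3 of the genes required, 3 of 4 animals were lower, aged animal 1 lay above prepubertal animal 2, and the mean difference was -2.06 (exact permutation test, p = 0.2). Between seasons the log2 share was higher in the breeding testis of prepubertal animals 1 and 2, by 1.25 and 1.15. The change was -3.58 in adult animal 1, -2.48 in aged animal 1 and -1.10 in aged animal 2. Over the 6 animals the mean change was -0.70 (exact sign-flip permutation test, two-sided p = 0.469, adjusted p = 0.469). The value of adult animal 2, 0.56, came from the small library without members and a pseudocount of 0.5 cells. With every cell thinned to 1000 UMIs the mean seasonal change was 0.86, but its sign rests on 2 animals with an empty library. Adult animal 2 then had 3 members in the non-breeding season and 0 of 44 cells in the breeding season, and aged animal 2 had 0 and 3 members, so the pseudocount set their values of 4.79 and 3.09. The other animals were at 0.63 and 1.53 (prepubertal), -1.51 (adult animal 1) and -3.37 (aged animal 1), with signs as without thinning. With at least 3 of the genes the mean was 0.32, and prepubertal animal 1 turned to -0.50, from 21 non-breeding and 10 breeding cells. Adult animal 2 and aged animal 2, each with an empty library, were then at 4.86 and 2.61.

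Cells of the 2 Leydig-like clusters were 46 of 10467 cells (0.439%) and 32 of 7210 (0.444%) in the non-breeding and breeding libraries of prepubertal animal 1. In prepubertal animal 2 they were 22 of 11338 (0.194%) and 50 of 9903 (0.505%), with intervals of 0.122 to 0.294 and 0.375 to 0.665 that cover counting error. Adult non-breeding libraries held 16 (0.173%) and 15 (0.146%), and the adult breeding library of animal 1 held 9 (0.0959%). Of these adult cells 5, 1 and 0 lay in the first, mostly prepubertal, cluster and 11, 14 and 9 in the second. The 11 cells of adult animal 1 in the second cluster held 0 UMIs of INSL3 and STC1 at a median of 13620 UMIs, and none met the rule after thinning, so their genes go against the name of the cluster. The non-breeding library of aged animal 1 held 41 of 12869 cells (0.319%), while the other aged libraries held 2 or 3. The higher share of all members in the breeding season of prepubertal animals was therefore mostly one of Sertoli-like members, at 6.06% against 2.29% in animal 1 and 5.26% against 2.40% in animal 2. The lower share in the breeding season of adult animal 1 was likewise mostly one of Sertoli-like members, at 0.0533% against 1.67%. In aged animal 1 Sertoli-like members were at 0.0270% against 0.0155%, so the lower share there was one of Leydig-like members.

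**Figure D2:**
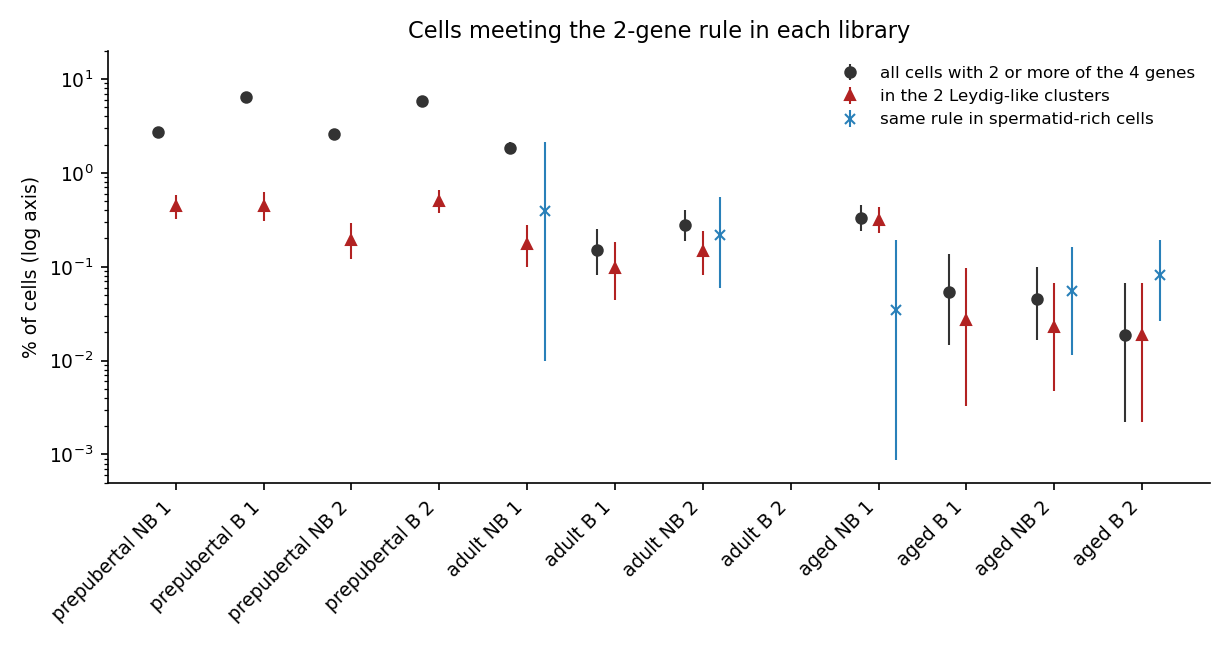
Share of cells (y axis, percent, log axis) in each library (x axis; NB non-breeding, B breeding, number of the animal within its age group), with 95% exact binomial intervals. Circles are all members, triangles the cells of the 2 Leydig-like clusters, which in adult libraries are mostly second-cluster cells, and crosses the same rule applied to spermatids; a value of 0 is not drawn. Members range from 6.50% in a prepubertal library to 0.0185% in an aged one, and the triangle of the non-breeding library of aged animal 1 (0.319%) lie among the prepubertal values.

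Of the 2 Leydig-like clusters, the first held 154 cells, of which 148 were prepubertal, and was led by CYP17A1, LHCGR, STC1, SPOCK1 and MGARP. Its 148 prepubertal cells were summed per library, as CPM. They were set beside the Sertoli-like members and beside stromal cells of the same libraries. These stromal cells carried at least 2 of DCN, LUM, PDGFRA and COL1A1. Cells that also carried 2 or more of SOX9, AMH, FATE1 and CITED1, 10265 over all libraries, were left out. A gene is called above or below where its level differed by over 2-fold, after adding 10 CPM, in the same direction in all 4 prepubertal libraries. Since these cells were clustered on the same counts, the differences are a description without a test. Against the Sertoli-like members, 1.86% of 14542 genes were above and 2.98% below. Against the stromal cells, 0.45% of 15323 genes were above and 1.44% below.

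LHCGR, which helped to name the cluster, is given first among the genes of hormone sensing and steroid synthesis. Its level in the first Leydig-like cluster was 608 and 366 CPM in the non-breeding and 763 and 617 CPM in the breeding libraries of animals 1 and 2, against 9.89 CPM in stromal cells and 1.69 CPM in Sertoli-like members. No library of the cluster overlapped the other sets. HSD3B2 (chromosome 1, 104903322 to 104911270, minus strand), which oxidizes the early steroids on the way to androgens, was at 312 and 107 CPM in non-breeding and 397 and 336 CPM in breeding libraries. In stromal cells it was at 33.0 CPM and in Sertoli-like members at 62.1 CPM, from 48.6 to 87.0 CPM by library, so the libraries of the cluster lay above both.

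HSD17B3, which makes testosterone from androstenedione, ran the other way. It had 12 UMIs in the cluster, at 50.2 and 8.92 CPM in non-breeding and 20.9 and 0 CPM in breeding libraries, against 90.2 to 191 CPM in Sertoli-like members. CYB5A, a cofactor of CYP17A1, was at 289 to 659 CPM against 327 to 556 CPM, and these sets overlapped. FDXR, which feeds electrons to CYP11A1 through ferredoxin, was at 156 to 279 CPM against 201 to 241 CPM, and likewise overlapped. HSD3B1 and the genes CYP21A2 and CYP11B1 of adrenal steroids, and the aromatase gene CYP19A1, had 0 UMIs. Of 12 genes of the steroidogenesis list with enough UMIs, 1 was above and 1 below the Sertoli-like members, with a median log2 difference of -0.03 against -0.24 over all genes. Against stromal cells 2 were above (LHCGR and HSD3B2) and 0 below, with a median of 0.40 against -0.28.

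The choosing genes themselves varied between libraries. CYP17A1 was at 2397 and 847 CPM in non-breeding and 3670 and 1422 CPM in breeding libraries of the cluster. INSL3 was lower and even, at 44.6 to 73.2 CPM. CYP11A1 was detected in 15.5% of these cells, at 20.9 to 178 CPM. It is not compared with the Sertoli-like members, of which 1496 of 1650 were members through STAR and CYP11A1 alone. STAR was at 357 to 703 CPM.

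Genes of cholesterol handling and secretion differed in part. APOE and APOC1, apolipoproteins that carry lipid, were the 2 of 27 cholesterol genes above Sertoli-like members. APOC1 was at 767 to 2227 CPM, against 152 to 246 in Sertoli-like members and 139 to 209 in stromal cells, and APOE was detected in 100% of the cells. The cholesterol synthesis genes HMGCS1 and SQLE were at 17.8 to 125 and 0 to 16.7 CPM, and HMGCS1 overlapped Sertoli-like members at 62.4 to 104 CPM. Of 16 secreted factors, IGFBP5, IGFBP7 and DLK1 were above Sertoli-like members, and INHA, INHBB and PTGDS below. DLK1, a membrane protein of immature cells, was at 321 to 952 CPM against 13.4 to 16.5 CPM in Sertoli-like members. Against stromal cells, IGFBP5 alone of the 16 was above and INHBA, IGF2 and IGFBP3 were below. The median log2 difference there was -0.68 against -0.28 over all genes. DLK1 and IGFBP7 were thus not called above stromal cells. IGFBP5, which binds insulin-like growth factors, was at 660 to 1555 CPM and was also above stromal cells, at 285 to 541 CPM. IGF1 was at 22.3 to 102 CPM, overlapping the stromal cells at 72.6 to 156 CPM, whereas IGF2 was at 335 to 589 CPM against 2458 to 4142 CPM.

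Of 19 genes of luteinizing hormone signalling and transcription factors, NR2F2 and ESR1 were above the Sertoli-like members and GATA6 and ZFPM2 below. Against stromal cells none of 20 was above and NR2F1 was below, and of 5 hedgehog genes GLI2 was below. HHIP and PTCH1, targets of the hedgehog signal sent by Sertoli cells, were 2 of 4 hedgehog genes above Sertoli-like members, HHIP at 73.2 to 352 CPM against 4.92 to 6.94 CPM. NR2F2, a nuclear receptor of interstitial cells, was at 348 to 491 CPM against 13.0 to 32.6 CPM, with its highest library level with the lowest of the stromal cells, which were at 491 to 554 CPM. NR5A1, the master regulator of steroid genes, had 14 UMIs, at 0 to 44.6 CPM, too few to order. STC1, a secreted glycoprotein, was at 268 to 753 CPM and MGARP, a mitochondrial protein, at 53.5 to 282 CPM, against 31.7 to 55.6 and 2.92 to 6.33 CPM in stromal cells. GSTA2, a glutathione transferase, was at 1070 to 2520 CPM, against 263 to 407 CPM in stromal cells. An unnamed gene, ENSMMUG00000059261, was detected in 81.1% of the cells, at 392 to 1589 CPM against 12.1 CPM in stromal cells.

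Markers of other cells were present in the cluster. The 8 Sertoli markers summed to 1086 to 3112 CPM, against 2113 to 2690 in stromal cells, 7515 to 8480 over the whole libraries and 7830 to 9680 in Sertoli-like members. AMH alone was at 524 to 1935 CPM. The 10 stromal markers summed to 2643 to 3179 CPM, against 5569 to 8531 in stromal cells, with DCN at 401 to 1025 CPM against 2023 to 3706 CPM. The 6 T cell and the 6 round spermatid markers were at 0, the 8 myeloid markers summed to at most 15.6 CPM and the 5 endothelial markers to at most 22.3 CPM. The stromal cells were chosen with DCN, LUM, PDGFRA and COL1A1 and against SOX9, AMH, FATE1 and CITED1. Their sums of stromal and Sertoli markers follow in part from that choice. The part of other cells' markers in the differences was not tested.

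**Figure D3:**
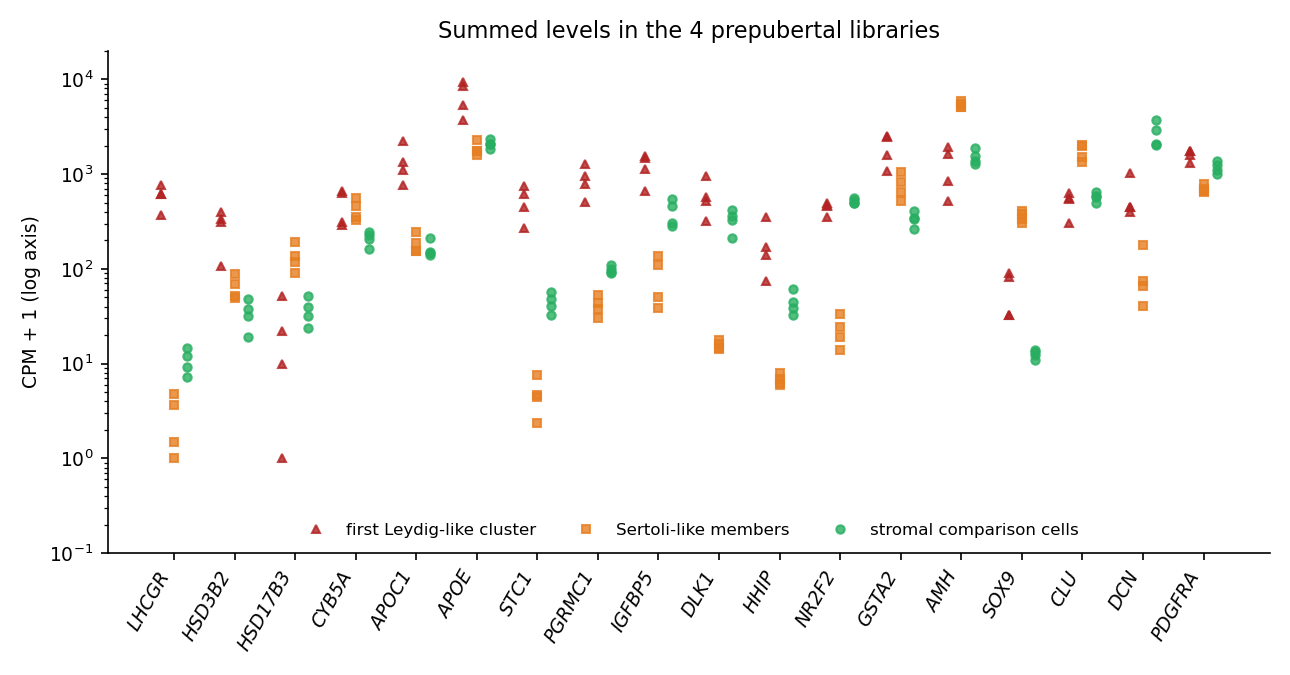
Summed level (y axis, CPM + 1, log axis) of 18 genes (x axis) in each of the 4 prepubertal libraries, 1 point per library. Triangles are the first Leydig-like cluster, squares the Sertoli-like members and circles stromal comparison cells. LHCGR, STC1 and PGRMC1 lie apart from both other sets, whereas AMH and SOX9 lie below the Sertoli-like members. DCN, a gene that chose the stromal cells, lies between those cells and the Sertoli-like members.

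The second Leydig-like cluster held 84 cells. Of these, 41 were cells of aged animal 1 in the non-breeding season, 34 came from adult libraries, 7 from other aged libraries and 2 from a prepubertal one. In its adult cells CYP17A1 was at 49.2 CPM for animal 1 and 497 CPM for animal 2 in the non-breeding season and at 1275 CPM in the breeding library, and LHCGR at 67.6, 213 and 325 CPM. INSL3 was at 0 CPM in both adult non-breeding libraries and at 23.2 CPM in the breeding one, and STC1 at 0, 97.7 and 116 CPM. The Leydig-like name of this cluster came from an average over libraries, in which these 3 adult libraries and that of aged animal 1 weighed equally. INSL3 was detected in 33 of its 48 aged cells and in 1 of its 34 adult cells. Its adult cells are not described further. In the first cluster, 5 cells of adult animal 1 in the non-breeding season held 93 UMIs of CYP17A1, 10 of LHCGR and 5 of INSL3, and 1 cell came from adult animal 2.

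The 41 cells of aged animal 1 were set beside the 4 prepubertal libraries of the first cluster. This is 1 library, so it carries no test and age cannot be told apart from that animal. INSL3 and CYP11A1 helped to choose the cells, so their levels are a description and follow in part from that choice. INSL3 was at 743 CPM (114 UMIs), beside 44.6 to 73.2 CPM in prepubertal libraries. It was detected in 29 of the 41 cells (70.7%) and in 27 of the 148 prepubertal ones. CYP11A1 was at 469 CPM, beside 20.9 to 178 CPM. MGARP was at 658 CPM (95% exact Poisson interval 536 to 800), above 53.5 to 282 CPM. GSTA2 was at 3095 CPM (2823 to 3386), above 1070 to 2520 CPM. CYP17A1, at 1987 CPM, and STAR, at 684 CPM, lay within the prepubertal range.

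Other genes were lower in the aged cells. HSD3B2 was at 13.0 CPM (1.58 to 47.1, 2 UMIs), below the 107 to 397 CPM of prepubertal libraries. DLK1 was at 39.1 CPM (14.4 to 85.1), below 321 to 952 CPM. LHCGR was at 293 CPM (214 to 392), below 366 to 763 CPM, with intervals that overlapped in 1 library. PTCH1 had 1 UMI and AMH 1 UMI, at 6.52 CPM each, below 44.6 to 117 and 524 to 1935 CPM. Over whole libraries AMH was at 17.3 CPM in this aged library and at 4789 to 5803 CPM in the prepubertal ones. The lower AMH was thus not particular to the Leydig-like cells. HSD17B3 had 2 UMIs.

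Over 2-fold above each of the 4 prepubertal libraries were 13.2% of 8766 genes, and 8.51% were below each of them. The steroidogenesis list had 0 above and 2 below (POR and HSD3B2) of 9 genes, with a median log2 difference of -0.08, the same as over all genes. The hedgehog list had 0 above and 1 below (PTCH1) of 3 genes, and the stress response list 0 above and 5 below (FOS, FOSB, EGR1, ATF3 and BTG2) of 12. The 15 genes furthest above included TNP2, PRM1, PRM2, ROPN1L, CETN1 and LDHC, genes of male germ cells, and the hemoglobin gene HBE1, and each of the 15 was higher over the whole aged library than in these cells. The 6 elongated spermatid markers summed to 14635 CPM in these cells, against 43873 CPM over the whole aged library and at most 145 CPM in the prepubertal cluster. The 2 erythroid markers summed to 2965 CPM, against 4006 CPM over that library. PRM1 was at 10093 CPM against 28866 CPM and detected in 100% of the cells. INSL3 and CYP11A1, which helped to choose the cells, were at 4.47 and 3.06 CPM over that library. The part of free RNA in the other differences was not tested.

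**Figure D4:**
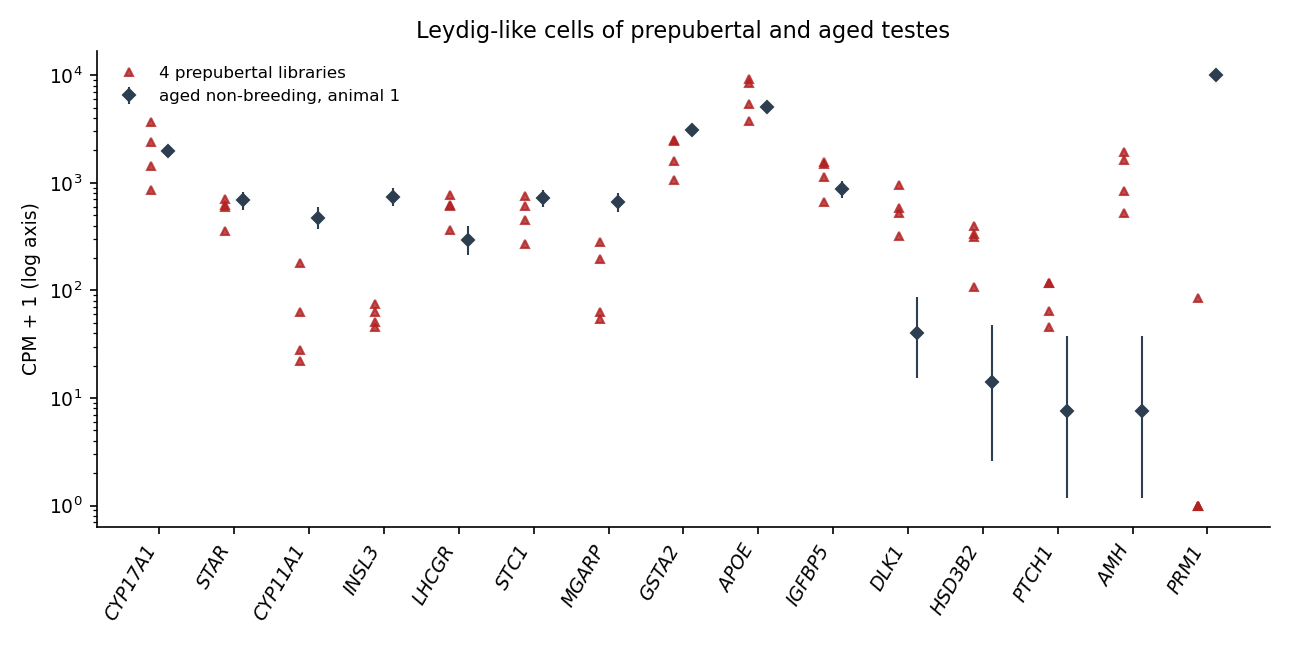
Summed level (y axis, CPM + 1, log axis) of 15 genes (x axis) in Leydig-like cells. Triangles are the 4 prepubertal libraries of the first cluster and diamonds the 41 cells of the non-breeding library of aged animal 1 with 95% exact Poisson intervals. INSL3 (743 CPM) and CYP11A1 (469 CPM), which helped to choose the cells, lie above the prepubertal points. DLK1 (39.1 CPM) and HSD3B2 (13.0 CPM) lie below them, and PRM1 is at 10093 CPM.

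The season was then examined within the first Leydig-like cluster of the 2 prepubertal animals, whose cells per library were 44 and 22 in the non-breeding and 32 and 50 in the breeding season. Over 2-fold above in the breeding testis of both animals were 0.925% of 7355 genes, and 2.07% were below in both. With 1 library per animal and season these are values without a test. None of 9 steroidogenesis genes and none of 18 cholesterol genes was among them, with medians of -0.03 and 0.36 on the log2 scale against -0.04 over all genes. CYP17A1, a choosing gene carried by 143 of the 148 cells, was higher in the breeding testis in both animals. It was at 3670 against 2397 CPM and at 1422 against 847 CPM. Breeding cells were shallower, at a median of 2656.5 against 3935.5 UMIs in animal 1 and 2487.5 against 4481.5 UMIs in animal 2. The part of depth and of that choice in the CYP17A1 levels was not tested. LHCGR, which helped to name the cluster, was at 763 against 608 and 617 against 366 CPM, each higher by under 2-fold. HSD3B2 was at 397 against 312 CPM in animal 1 and 336 against 107 CPM in animal 2.

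Among listed genes, NR4A1, an orphan nuclear receptor induced by luteinizing hormone, was above in the breeding testis, at 314 against 94.8 CPM and 453 against 125 CPM. JUN, an immediate early gene, was at 1056 against 424 and 1376 against 482 CPM. ACTA2, smooth muscle actin, was at 136 against 50.2 and 219 against 98.1 CPM. In the Sertoli-like members of the same libraries NR4A1 was at 777 against 129 and 761 against 330 CPM, so the gene was not particular to the Leydig-like cells. CRY1, a circadian repressor, was at 125 against 22.3 and 141 against 26.8 CPM, and FOSL2 at 136 against 5.58 CPM in animal 1 and 78.2 against 0 CPM in animal 2. The limit for a count of 0 was 16.7 and 26.8 CPM in the non-breeding sums of animals 1 and 2. FOSL2 lay under it in both animals. CRY1 lay little above it in animal 1 and at it in animal 2. The non-breeding levels of both genes thus rest on few UMIs.

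Of 11 listed secreted factors PTN, a growth factor, was below in the breeding testis, at 10.5 against 50.2 and 7.82 against 26.8 CPM. Sertoli genes were also among those below. FSHR, the receptor of follicle-stimulating hormone, was at 0 against 78.1 and 15.6 against 187 CPM, and SOX9 at 31.4 against 89.2 and 31.3 against 80.3 CPM. The limit for a count of 0 was 31.4 and 23.4 CPM in the breeding sums of animals 1 and 2. PTN and FSHR lay under it in both animals, and SOX9 lay at it in animal 1 and above it in animal 2. The breeding levels of these genes thus rest on few UMIs. The non-breeding level of PTN in animal 2 lay at the limit of its sum, 26.8 CPM. The 8 Sertoli markers summed to 1610 against 2732 CPM in animal 1 and 1086 against 3112 CPM in animal 2. Over the whole libraries they summed to 7845 against 8310 and 7515 against 8480 CPM. The part of Sertoli RNA in the seasonal differences was not tested.

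**Figure D5:**
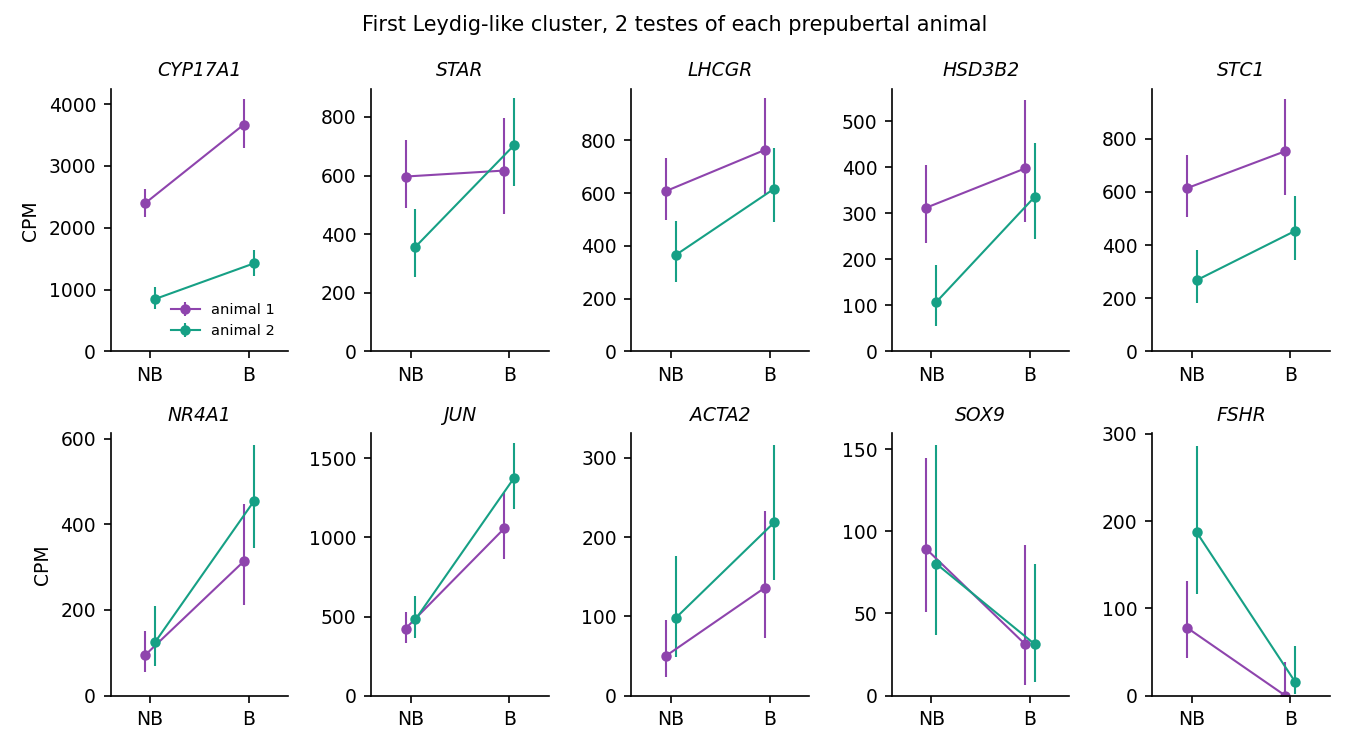
Summed level (y axes, CPM) of 10 genes in the first Leydig-like cluster of the non-breeding (NB) and breeding (B) testis of prepubertal animals 1 and 2, with 95% exact Poisson intervals and a line joining the testes of 1 animal. CYP17A1 is at 2397 and 3670 CPM in animal 1 and at 847 and 1422 CPM in animal 2, NR4A1 and JUN are higher in B in both animals, and SOX9 and FSHR are lower.

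All members were also summed per animal and per library and fitted across genes without the 4 choosing genes. These sums are mostly Sertoli-like members before puberty and mostly Leydig-like in aged animal 1. The sums per animal add both seasons, in unequal parts. Prepubertal animals gave 286 and 294 non-breeding and 469 and 571 breeding members. Adult animals gave 170 and 29 non-breeding and 14 and 0 breeding members, and aged animal 1 gave 43 and 4. Age is thus partly mixed with season in these fits, and the part of season was not tested. By edgeR, 0 of 13136 genes (0%) passed an adjusted p of 0.05 between adult and prepubertal members, with 3405 at an unadjusted p under 0.05, a smallest adjusted p of 0.0501 and 1565 genes by DESeq2. Leaving out any 1 of the 5 animals in the fit gave 528 to 3947 genes, but each of these fits without a prepubertal or adult animal has 1 animal in an arm and 1 residual degree of freedom, and the 3947 set adult animal 2 alone against the prepubertal ones. Between aged and adult members 0 genes (0%) passed by edgeR, while 1058 had an unadjusted p under 0.05 and DESeq2 called 20. This contrast sets aged animal 1 alone against the adult animals, since aged animal 2 had fewer than 10 members and left the fit. The aged animal is assumed to vary like the animals of the other groups, which supplied the 2 residual degrees of freedom. Leaving out any 1 of the prepubertal or adult animals, with 1 residual degree of freedom, gave 8 to 471 genes, and the highest count, without adult animal 2, sets 1 animal against 1.

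Between seasons 0 of 14145 genes (0%) passed by edgeR in prepubertal members without pairing the testes, with 399 at an unadjusted p under 0.05. DESeq2 called 2. Adding the animal as a replicate block gave 412 genes, 198 of them higher and 214 lower in the breeding testis, with 1 residual degree of freedom. In adult members 0 of 14145 genes (0%) passed by edgeR, with 581 at an unadjusted p under 0.05. DESeq2 called 0 there, and the block gave 226. In this contrast the breeding season is the 1 library of animal 1. LHCGR differed between seasons by -0.75 ± 0.82 (log2, approximate SE) in prepubertal members and by 1.44 ± 1.17 in adult ones, and neither passed the test. The SE given here and below is the log2 change divided by the square root of the F of the edgeR test. It is worked back from that test and was not fitted on its own.

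Finally, the sums over whole libraries, where no cell was chosen by a gene, allowed a test of the 4 genes. In such sums fewer cells of a type and less RNA per cell cannot be told apart. Between adult and prepubertal animals 51.2% of 21282 genes passed by edgeR, 5947 higher and 4946 lower, and without prepubertal animal 2 or adult animal 2 the count was 6072 or 4090. CYP11A1 was at 23.2 and 46.3 CPM in prepubertal and 6.09 and 1.31 CPM in adult animals, and it fell by 3.27 ± 0.77 on the log2 scale (edgeR adjusted p = 0.0146). Without adult animal 2 the adjusted p was 0.0567 by edgeR. CYP17A1 was at 15.5 and 6.45 CPM against 3.42 and 3.34 CPM, a log2 difference of -1.74 ± 0.81 (edgeR adjusted p = 0.111), and without aged animal 1 or 2 in the fit that p was 0.0349 or 0.0329. STAR (-0.29 ± 0.29) and INSL3 (-1.75 ± 1.26) did not pass.

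Of 14 steroidogenesis genes in these sums 7 passed, a share near the 51.2% of all genes and so no result about the list. LHCGR and CYP19A1 rose and SCARB1, FDXR, POR, HSD3B2 and HSD17B1 fell, with a median log2 difference of -1.03 against -0.02 over all genes. LHCGR rose from 6.18 and 3.20 CPM to 71.5 and 109 CPM, by 4.23 ± 0.58 (edgeR adjusted p = 0.00338), while PRM1 was at 3928 to 98440 CPM in the adult libraries. HSD3B2 fell from 65.5 and 50.7 to 32.9 and 19.9 CPM, by 1.18 ± 0.35 (edgeR adjusted p = 0.0293). It lost the call without either prepubertal animal or adult animal 2, at adjusted p of 0.0607 to 0.181 by edgeR. FDXR, POR and SCARB1 lost it without adult animal 2, at adjusted p of 0.0507 to 0.108.

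Between aged and adult animals 0 of 21282 genes (0%) passed over whole libraries by edgeR, while 4597 had an unadjusted p under 0.05 and DESeq2 called 2061. INSL3 was at 2.81 and 0.348 CPM in aged against 0.150 and 0 CPM in adult animals, so aged animal 1 stood above the other older animals, and the difference did not pass (edgeR adjusted p = 0.147). HSD3B2 was at 2.70 and 2.99 CPM in aged animals, below the 32.9 and 19.9 CPM of adult ones, with an adjusted p of 0.0849 by edgeR. Between seasons in adult and aged animals 0 of 20518 genes (0%) passed by edgeR without pairing the testes, with 5915 at an unadjusted p under 0.05. DESeq2 called 2439, and the fit with the replicate block called 5455. Leaving out the non-breeding testis of adult animal 2 gave 6155 genes and leaving out that of aged animal 2 gave 1880.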

How the data were processed

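The authors deposited whole-number UMI counts per gene and barcode for 12 droplet libraries, made with Cell Ranger 9.0.0 on Mmul_10 per the submitters' processing notes, for barcodes called as cells. GEO's labels list 48 samples, 8 per group, and the study's library sheet was used to assign the 12 matrices to groups and animals. The members, gene lists and tests were chosen with earlier results of these data known. Genes to name were, by the rule set, the 10 with the largest change in each direction among those past the threshold, the listed genes that passed, the 4 choosing genes, and list members for levels. The 10 in each direction of the whole-library fits are not printed, since they do not concern the members. Genes named for leading a cluster or a difference were chosen after their values were seen.

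Of 26530 features, 9920 had no symbol and 565 of these were named from a table of gene names. Of 210 listed genes, 198 were in the files. Counts were summed per animal for age and per library for season, keeping sums of at least 10 members. They were fitted with edgeR 4.0.16 (quasi-likelihood, TMM, filterByExpr) with Benjamini-Hochberg adjustment over all genes tested, with DESeq2 1.42.0 as an alternative. Clusters were made with scanpy 1.11.5. Doublets were predicted as the highest scores at 0.8% per 1000 cells and kept, and the smallest library was not scored. Ratios of levels used genes with at least 10 UMIs and a pseudocount of 10 CPM. Intervals (95%) and the limit for a count of 0 (3 counts) cover counting error only. The testes of 1 animal share that animal. The main season fits did not pair them, and the animal was the replicate block of an alternative fit only. Deviations of the testes from the group means correlated at 0.46 in prepubertal, 0.05 in adult and 0.44 in aged animals. Each age group holds 2 animals, but the member fits kept 1 aged animal and 1 adult breeding library, which were assumed to vary like the other groups. Counts were simulated with 1 mean profile and 1 fixed spread for all groups, unlike the members, whose make-up differed by age. With 100 genes changed by a log2 of 2, the member fits recovered 71% between adult and prepubertal and 20% between aged and adult. They recovered 81% between prepubertal seasons and 2% between adult seasons. At a log2 of 1 these shares were 7%, 2%, 15% and 0%. Recovery at the spread of the real counts was not measured.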

Additional observations from a re-analysis of the deposited data

Results flagged for a closer look

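The seasonal change in the share of cells with 2 steroid pathway genes was positive in both prepubertal animals and negative in 3 of the 4 older animals, and the difference was not tested. On the log2 scale the breeding minus non-breeding change was 1.25 and 1.15 in prepubertal animals 1 and 2. It was -3.58 in adult animal 1, and -2.48 and -1.10 in aged animals 1 and 2. The rise in the prepubertal animals and the fall in adult animal 1 were mostly of Sertoli-like members. In adult animal 1 these went from 1.67% in the non-breeding to 0.0533% in the breeding library. The fall in aged animal 1 was of Leydig-like members, from 0.319% to 0.0270%. Adult animal 2 was at 0.56, a value that rests on a library of 117 cells without members. Aged animal 2 lay at or below the share measured in spermatids. After thinning to 1000 UMIs aged animal 2 was at 3.09 and with at least 3 of the genes at 2.61, values set by the pseudocount from 0 against 3 and 0 against 2 cells. With at least 3 of the genes prepubertal animal 1 was at -0.50, from 21 non-breeding and 10 breeding cells.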

How the results depend on the processing

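Counts of called genes in the member sums moved with the processing, and the cause was not tested. Between adult and prepubertal members the count of 0 became 2311 without a low-count filter, 1565 with DESeq2, 954 without predicted doublets and 528 to 3947 with an animal left out. Between aged and adult members it became 38, 20, 1 and 8 to 471 by the same changes. Between prepubertal seasons it became 2 with DESeq2 and 4 in members with at least 3 of the genes. With the animal as a replicate block it became 412, and 226 between adult seasons. Size factors of DESeq2 in edgeR left these counts at 0, as did a minimum of 20 cells, which gave no value between adult seasons. Over whole libraries, leaving out an animal gave 4090 to 10946 genes between adult and prepubertal animals. Between aged and adult animals DESeq2 called 2061. Between older seasons DESeq2 called 2439, the replicate block 5455 and leaving out a library 0 to 6155. Of 99 repeats of single genes, 89 stayed on their side of the threshold, 7 lost and 2 gained a call, and STAR, at a log2 difference of -0.57 to 0.044 with an animal left out, reversed without prepubertal animal 1. The seasonal log2 share was 0.86 after thinning and 0.32 with at least 3 genes, opposite in sign, where the pseudocount set the values of adult animal 2 and aged animal 2, each with an empty library. The mean share after puberty was lower under each alternative run, from -2.06 to -4.97. The contrast of seasons in aged members, alone or with adult ones, could not be fitted because no aged breeding library held 10 members.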
